A study of Rattus norvegicus with 6 samples.

Results

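Histone genes were taken as every gene whose symbol begins with Hist1h to Hist4h, H1f, H2af, H3f or H4f, which held for 41 of the 15227 genes in the count matrices. Of these, 30 carry a Hist symbol and are the replication-dependent genes that lie in clusters, with 6 H1, 11 H2A, 9 H2B, 2 H3 and 2 H4 genes. The other 11 are replacement genes, with 2 H1, 6 H2A and 3 H3 genes. The libraries came from rat cerebral hemisphere, dissociated with trypsin and DNase and loaded on a 10x Genomics Chromium instrument, with 3 libraries from control rats (NC) and 3 from rats acutely poisoned with carbon monoxide (CO). The exposure was 1000 ppm of the gas for 40 minutes followed by 3000 ppm for 20 minutes, and animals with carboxyhemoglobin above 60% and impaired consciousness were taken as severely poisoned, as the series is described. NC rats are labelled as negative controls. Strain, sex, age and the time from exposure to dissection are not given in the sources used here.

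Histones are the proteins around which nuclear DNA is wound. H2A, H2B, H3 and H4 form the core of the nucleosome, and H1, the linker histone, binds the DNA where it enters and leaves that core. Replication-dependent genes supply the bulk of histone protein while DNA is copied in S phase, and their mRNAs normally end in a stem-loop that is bound by the protein Slbp, not in a poly(A) tail. Most replacement genes are transcribed through the cell cycle and in cells that do not divide, and most of their mRNAs are polyadenylated. Libraries of this kind usually prime on poly(A) tails, so a replication-dependent gene is read from the tailed or internally primed part of its mRNA. More transcript and a larger tailed share of it cannot be told apart in these counts.

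The libraries held 39494470 to 47322264 UMIs (unique molecular identifiers, 1 per captured transcript) in 6331 to 7953 barcodes, and 5580 to 6894 cells per library were kept. Across 15 pairs of libraries 1 barcode was shared. The variance between library means, relative to that expected for parts of 1 pool of cells and averaged over genes, was 1.02 over 10748 genes in NC and 1.14 over 10652 genes in CO, where 1 is the value for parts of 1 pool. Over the histone genes alone it was 0.777 (25 genes) in NC and 1.34 (29 genes) in CO. Each group was therefore counted as 1 sample, although the series description names 3 rats per group. The genes were selected on their symbols, but the family was chosen by its levels in NC and CO cells of these same counts, so its CO to NC values are a description. No p-value is given for a CO to NC difference, intervals are exact 95% intervals that cover counting error only, and the library values show technical spread. Cells were placed in classes by marker genes, and 10 classes had at least 25 cells in every library. Microglia were the largest class, with 6914 NC and 7820 CO cells, in which 8 of 10 markers were higher than in any other class.

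Members matched 35 single RefSeq genes (GRCr8), and 32 of these had an upstream sequence. For 4 of the 32 (Hist3h2bb, Hist1h2af, Hist1h2bo and Hist1h2bd) the RefSeq start was an ATG. Their upstream bases may therefore not be counted from a transcription start. The letters CCAAT, read on both strands within 250 bases upstream of the start, were present in 21 of 23 replication-dependent and 6 of 9 replacement genes, against 34.3% of all 27457 promoters of that length. TATAAA, on both strands, was present in 15 of 23 replication-dependent genes and 1 of 9 replacement genes, against 13.1% of all promoters. AAACACA, the H1 box of linker histone genes, was present on either strand in 5 of 23 and 2 of 9, against 6.07%. The 150 bases upstream of the RefSeq start are shown for 7 members that the results turn on, 5′ to 3′ on the gene's strand, with the letters of these motifs on either strand in capitals. In Hist2h2be TATAAA and its reverse complement overlap. The windows of Hist2h2ac and Hist2h2be share 75 bases, since these genes point away from each other with 225 bases between their starts.
Hist2h2ab (H2A, chr2:186468074-186468223, plus strand): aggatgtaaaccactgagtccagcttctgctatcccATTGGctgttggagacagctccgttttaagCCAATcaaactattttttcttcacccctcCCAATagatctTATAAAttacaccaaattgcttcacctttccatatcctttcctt
Hist2h2ac (H2A, chr2:186469227-186469376, minus strand): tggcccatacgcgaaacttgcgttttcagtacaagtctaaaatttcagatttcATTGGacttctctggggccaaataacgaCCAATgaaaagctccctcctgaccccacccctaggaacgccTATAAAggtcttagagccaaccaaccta
Hist2h2be (H2B, chr2:186469302-186469451, plus strand): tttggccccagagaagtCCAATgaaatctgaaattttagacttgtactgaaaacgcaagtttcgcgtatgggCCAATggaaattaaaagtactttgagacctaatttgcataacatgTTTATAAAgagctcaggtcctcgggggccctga
Hist1h1e (H1, chr17:41914275-41914424, plus strand): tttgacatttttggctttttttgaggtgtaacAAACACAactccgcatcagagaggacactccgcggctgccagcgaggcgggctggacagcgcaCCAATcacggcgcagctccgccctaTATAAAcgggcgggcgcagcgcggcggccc
Hist1h1b (H1, chr17:47421725-47421874, plus strand): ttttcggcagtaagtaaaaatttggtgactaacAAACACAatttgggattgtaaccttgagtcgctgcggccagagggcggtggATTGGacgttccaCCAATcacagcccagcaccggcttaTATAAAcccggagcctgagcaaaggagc
H2afj (replacement H2A, chr4:171406772-171406921, plus strand): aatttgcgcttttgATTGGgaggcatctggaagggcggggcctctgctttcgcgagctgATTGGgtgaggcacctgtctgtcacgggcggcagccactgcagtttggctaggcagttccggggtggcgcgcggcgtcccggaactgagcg
H3f3b (replacement H3, chr10:101757637-101757786, minus strand): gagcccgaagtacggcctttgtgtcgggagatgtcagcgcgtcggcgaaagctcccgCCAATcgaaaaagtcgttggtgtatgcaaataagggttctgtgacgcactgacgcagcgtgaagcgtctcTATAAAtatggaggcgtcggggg

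Summed over the 30 replication-dependent genes, the level was higher in CO than in NC in each of the 10 classes, by 1.06-fold in pericytes (95% interval 0.911 to 1.23, which includes no difference) to 2.96-fold in astrocytes. The pericyte ratio was 0.936 without NC 02 and 0.966 with at least 2000 UMIs per cell. In microglia the sum was 953, 916 and 909 CPM (counts scaled to a common library total, with TMM factors) in the NC libraries and 1613, 1731 and 1656 CPM in the CO libraries. No CO library overlapped an NC library, and the ratio was 1.80 (95% interval 1.78 to 1.82). In neuroblasts, the migrating young neurons, the group sums were 2853 CPM in NC and 4732 CPM in CO (1.66-fold). The class held the highest sum in both groups. In border macrophages, the macrophages of the brain's coverings and vessels, the sums were 829 and 1259 CPM (1.52-fold), and in T or NK cells 932 and 1937 CPM (2.08-fold). Endothelial cells had 322 and 415 CPM (1.29-fold), choroid plexus 460 and 573 CPM (1.25-fold), oligodendrocytes 568 and 683 CPM (1.20-fold). Choroid plexus cells differed in median depth, with 38934.5 UMIs in NC and 9201 in CO. With each cell thinned to 2000 UMIs, their mean was 1.11 replication-dependent UMIs in NC and 1.10 in CO. The part of depth in the choroid plexus ratios was not tested. In pericytes (350 and 370 CPM) and ependymal cells (520 and 631 CPM) the libraries of the groups overlapped.

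**Figure D1:**
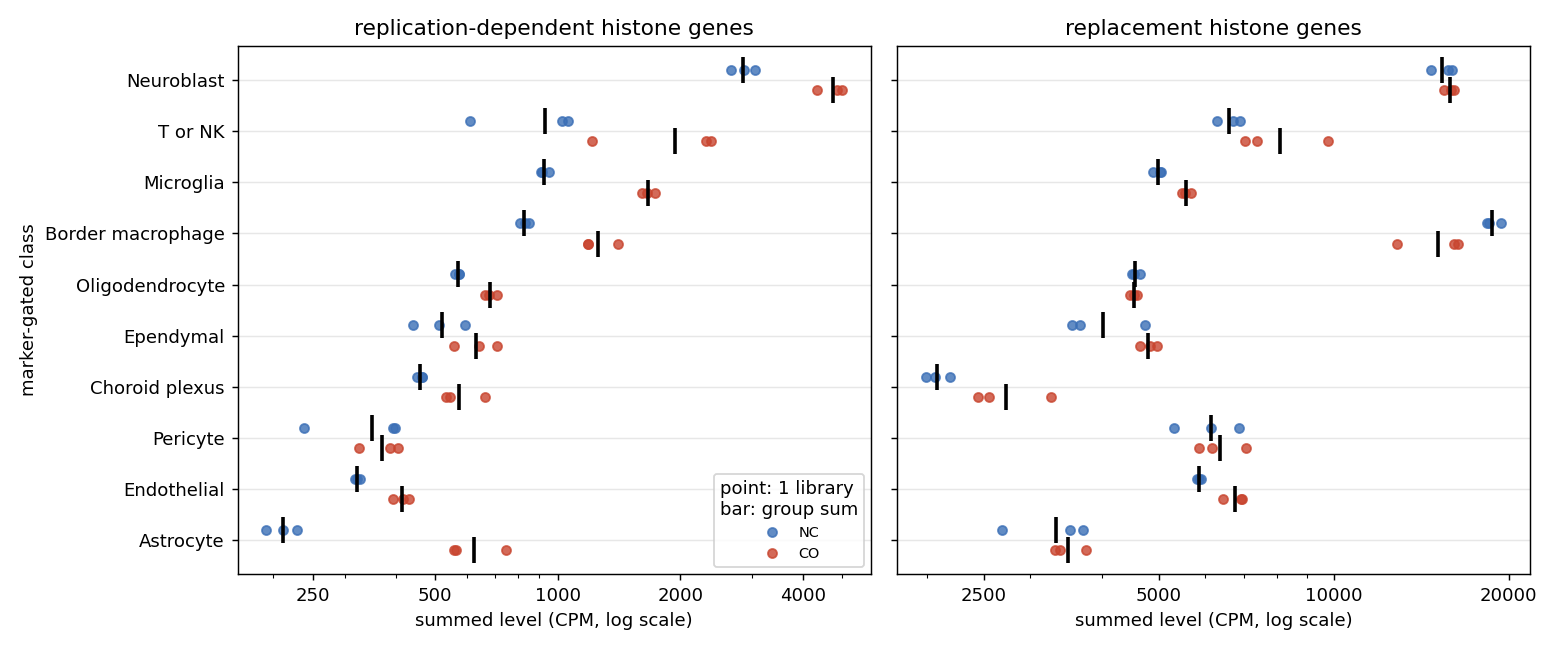
Summed level of the 30 replication-dependent (left) and 11 replacement histone genes (right) in CPM on log axes, by marker-gated class. Points are single libraries and bars the group sums, and the CO points lie to the right of the NC points on the left panel except in pericytes and ependymal cells, where they overlap.

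The sum of the 11 replacement genes in microglia was 4990 CPM in NC and 5567 CPM in CO, a ratio of 1.12 (1.11 to 1.12). The ratio lay between 0.993 in oligodendrocytes and 1.31 in choroid plexus in the other classes, except for border macrophages. There it was 0.807, from 18723 CPM in NC to 15116 CPM in CO, with every CO library below every NC library. H3f3b, which encodes the variant H3.3, holds 61.3% of the replacement UMIs of all kept cells. In border macrophages its level was 17793, 17022 and 16643 CPM in NC and 14816, 14944 and 11444 CPM in CO (0.803-fold).

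In microglia 13 replication-dependent and 6 replacement genes passed the minimum of 30 counts and a mean log2 CPM of 4. Of the 13, 7 were at least 2-fold higher in CO (Hist2h2ac, Hist2h2aa2, Hist1h1b, Hist1h1e, Hist1h2ak, Hist1h1d and Hist1h1c), as were 0.607% of all 6261 genes that passed. None of the 13 was at least 2-fold lower, against 0.495% of all genes. None of the 6 replacement genes was 2-fold apart. All 13 had every CO library above every NC library, which held for 28.9% of all genes.

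Hist1h1e, which encodes H1.4, had 108, 104 and 103 CPM in NC and 238, 256 and 232 CPM in CO, with no overlap and a ratio of 2.30 (2.22 to 2.39). Hist1h1c, which encodes H1.2, had 44.0, 40.1 and 38.0 CPM in NC and 83.5, 89.6 and 80.2 CPM in CO (2.08-fold). Hist1h1b, which encodes H1.5, had 23.4, 23.6 and 21.7 CPM in NC and 50.8, 62.0 and 53.5 CPM in CO (2.42-fold). Hist1h1d, which encodes H1.3, was 2.09-fold higher. These 4 genes hold most linker histone counts. Hist1h1a, which encodes H1.1, went the other way at a low level, with 3.90, 2.47 and 2.69 CPM in NC and 1.41, 1.32 and 2.26 CPM in CO (0.557-fold, 0.411 to 0.750).

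Among H2A genes the largest ratio above the level minimum was that of Hist2h2ac. Its level was 15.4, 14.3 and 15.1 CPM in NC and 36.2, 49.6 and 39.2 CPM in CO, 2.78-fold higher (2.53 to 3.06). Its neighbours had lower ratios. Hist2h2be, the H2B gene on the far side of the shared upstream sequence printed above, had 5.00, 4.36 and 5.30 CPM in NC and 4.47, 4.96 and 5.53 CPM in CO (1.02-fold, 0.836 to 1.25). Hist2h2ab, the adjacent H2A gene on the other side, had 70 UMIs in NC and 83 in CO, a ratio of 0.939 (0.675 to 1.31). All 3 promoters printed hold CCAAT and TATAAA. The intervals of both neighbours lay below that of Hist2h2ac. Further along the same cluster, Hist2h2aa2 was 2.46-fold higher and Hist2h2aa3, at 5.03 and 15.2 CPM, 3.02-fold higher. Reads of these near-identical copies can be split between them, so their separate values are uncertain.

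The most abundant core histone genes differed by less. Hist1h2bo, the H2B gene with most UMIs, was at 280, 298 and 295 CPM in NC and 516, 533 and 512 CPM in CO (1.79-fold). The H4 genes Hist1h4b and Hist2h4 were at 1.42-fold and 1.20-fold. Other H2A genes were Hist1h2ak (2.23-fold), Hist1h2ah (1.90-fold) and Hist1h2an (1.71-fold). Hist3h2ba, an H2B gene outside the main cluster, was 1.81-fold higher, while its direct neighbour Hist3h2bb was at 0.927-fold (0.819 to 1.05). Hist1h2ail1, an H2A gene, was at 0.648-fold. Hist1h3a, the H3 gene with counts, was below the level minimum, with 2.03, 2.06 and 2.30 CPM in NC and 0.958, 0.861 and 1.51 CPM in CO (0.521-fold). Below that minimum, Hist1h2bh had the highest ratio of all members (3.03-fold, from 2.87 to 8.70 CPM).

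**Figure D2:**
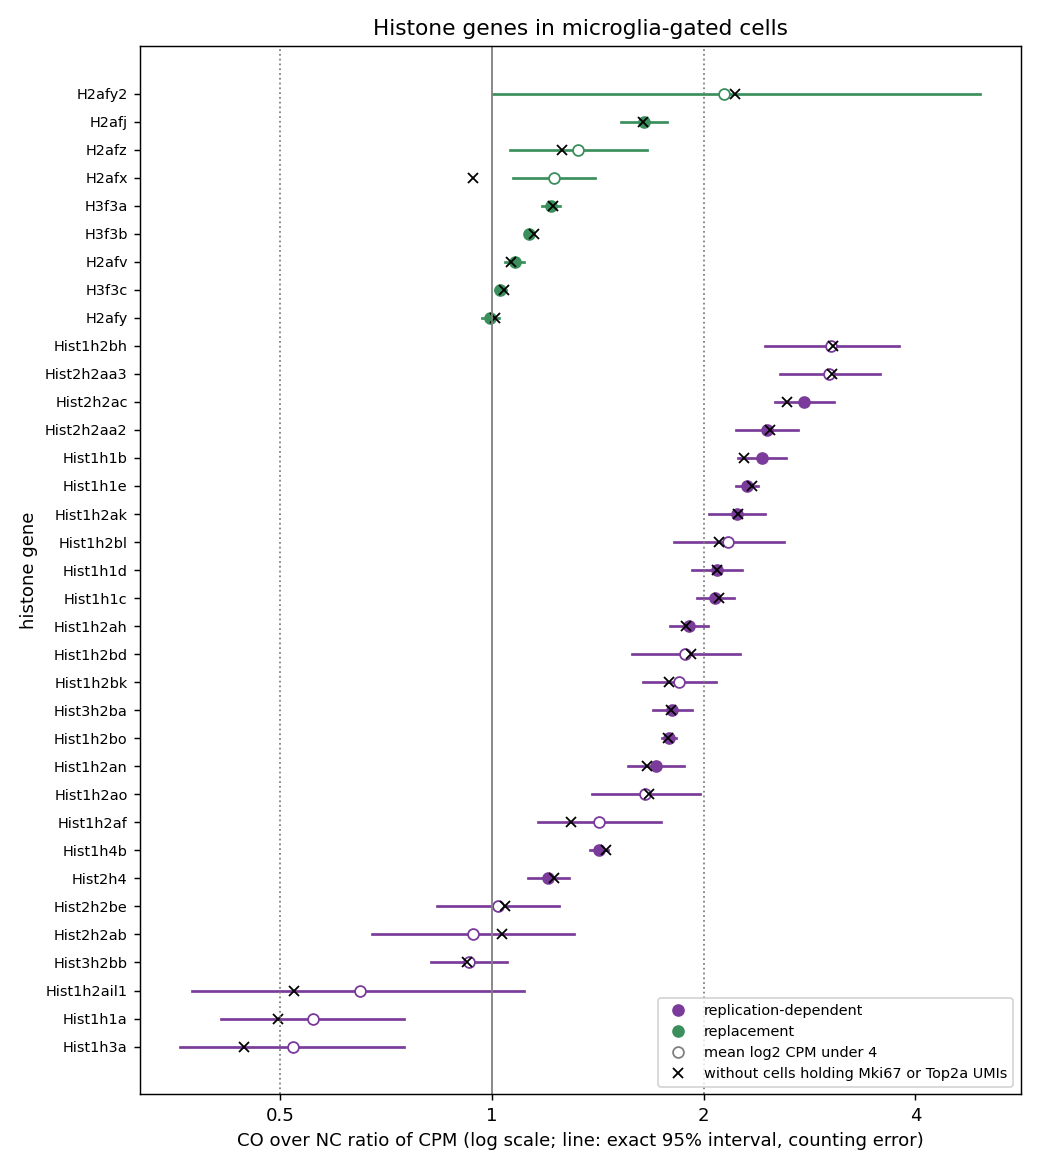
Ratio of CO over NC for each histone gene with at least 30 counts in microglia (log axis), with its exact 95% interval for counting error. Filled points passed the level minimum, open points did not, crosses are the ratios in cells with no UMI of Mki67 or Top2a, and the 7 called genes lie right of the dotted line at 2.

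Among replacement genes in microglia, H2afj, an H2A variant gene, had the largest ratio above the minimum, from 25.3, 26.7 and 30.9 CPM in NC to 45.0, 45.8 and 46.0 CPM in CO (1.65-fold). The H3.3 genes were at 1.21-fold (H3f3a) and 1.13-fold (H3f3b), and H3f3c, a near-identical copy, at 1.03-fold. H2afv, which encodes an H2A.Z form, was at 1.08-fold and H2afy, which encodes macroH2A1, at 0.995-fold. H2afz, the other H2A.Z gene, had 3.46 CPM in NC and 4.59 CPM in CO with overlapping libraries. H2afx, the variant phosphorylated at DNA breaks, had 10.8, 9.13 and 9.76 CPM in NC and 11.5, 14.4 and 10.5 CPM in CO, also with overlap. Its ratio was 1.22, and 0.940 (0.809 to 1.09) without the cells that hold Mki67 or Top2a.

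Cells with a UMI of Mki67 or Top2a, genes of dividing cells, made up 129 of 6914 NC and 304 of 7820 CO microglia. Without these cells the replication-dependent ratio in microglia was 1.80, and the same 7 genes were at least 2-fold higher, against 0.656% of 6254 genes. Cells with such a UMI are called dividing below for short. Of the 129 and 304, 40 and 127 held at least 2 such UMIs. In NC choroid plexus, at a median depth of 38934.5 UMIs, 18.3% of cells held 1 or more. In CO choroid plexus, at a median depth of 9201 UMIs, 11.2% did. Whether depth or free RNA gave such a UMI was not tested. Of 25 genes on the G2 and mitosis list with at least 30 counts, 20 were higher in CO in all microglia (median log2 ratio 0.72), led by Ccna2, Ube2c and Cenpf at 11.9-fold, 7.26-fold and 6.75-fold. The median over all genes was 0.0014. Counted per cell after thinning each cell to 2000 UMIs, which left out 666 NC and 697 CO microglia, 65.0% of NC and 80.3% of CO microglia held a replication-dependent UMI. The mean was 1.94 and 3.38 UMIs per cell. In endothelial cells these shares were 39.3% and 50.3%. Without thinning the shares in the same cells were 83.1% and 92.2% in microglia and 64.6% and 79.4% in endothelial cells. The median depth of all cells of the class was 5099 and 5904.5 UMIs in microglia and 4383 and 5379 in endothelial cells. Free RNA can give UMIs in any class, and its part in these shares was not tested.

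The genes that process histone mRNA were split in direction. Of 15 genes on the list of histone mRNA supply and 3′ processing, 9 were higher and 6 lower in CO microglia (median log2 ratio 0.07). The 3 lowest ratios were those of Lsm11, Slbp and Lsm10. Slbp, which binds the stem-loop at the end of histone mRNA, had 84.2, 78.4 and 80.4 CPM in NC and 61.1, 66.3 and 55.3 CPM in CO (0.751-fold, 0.713 to 0.791). Lsm10 and Lsm11, proteins of the U7 particle that cuts histone pre-mRNA at its 3′ end, were at 0.756-fold and 0.396-fold, with every CO library below every NC library. Lsm11 was measured at a low level, with 84 UMIs in NC and 42 in CO. The 3 highest ratios on this list were Upf1 (1.27), Casp8ap2 (1.14) and Snrpb (1.10). Of the 25 S phase genes with counts, 17 were higher (median 0.16), led by Rrm2 (1 UMI in NC and 30 in CO), Cdc45 (1.82-fold) and Mcm6 (1.64-fold). Mcm5 (0.564-fold) and Slbp were among the lowest. Histone chaperones, which carry histones to and from DNA, had 14 of 23 higher (median 0.09), from Hjurp at 2.89-fold, Chaf1a at 1.49-fold and Supt16h at 1.25-fold to Rbbp7, Cabin1 and Ubn2 at 0.910-fold, 0.889-fold and 0.880-fold. Other chromatin proteins had 5 of 9 higher (median 0.02), with Cbx5, Cbx1 and Hmgb1 at 1.27-fold, 1.14-fold and 1.06-fold and Hmgb2, Hmga1 and Hmgn3 at 0.959-fold, 0.933-fold and 0.808-fold.

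Genes from marker lists other than that of microglia had UMIs in the microglia. Of 19 marker lists other than that of microglia, 12 had a higher sum in CO than in NC microglia, with ratios of 1.02 to 3.24. The highest was that of the 2 genes that define dividing cells (7.76 and 25.2 CPM), which mark no other class. Next were the 10 neuroblast markers (8.47 and 19.8 CPM, 2.33-fold). Library sums of the neuroblast markers were 7.46 to 9.13 CPM in NC and 18.4 to 21.4 CPM in CO, and none of the 10 was at 0 in either group. Oligodendrocyte precursor markers were at 65.3 and 99.3 CPM, with 2 of 9 at 0 in NC and 1 in CO. Oligodendrocyte and choroid plexus markers were lower, at 580 and 430 CPM and at 1088 and 800 CPM. The part of RNA from other classes in the histone result was not tested.

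In neuroblasts the summed ratio was 3.06 in dividing cells and 1.17 in the others. The value in the others depended on Hist3h2ba, the most abundant of these genes there. Without it the ratio in the others was 1.61 (1.53 to 1.70). The libraries then did not overlap, at 910, 1068 and 703 CPM in NC and 1398, 1458 and 1454 CPM in CO. Over all neuroblasts the ratio without Hist3h2ba was 2.46. The following counts of called genes are gene by gene, first over all neuroblasts. Of 12 replication-dependent genes that passed the minimum, 9 were at least 2-fold higher in CO, against 1.49% of 7164 genes, and H1fx, the linker variant H1.10, was the replacement gene among them (2.40-fold). In the 84 NC and 173 CO neuroblasts with Mki67 or Top2a UMIs, 12 of 15 were called, against 5.53% of 6922 genes. In the other cells of the class, 1 of 7 was called (Hist1h1d, 2.05-fold), against 2.22% of 6971 genes. The largest ratio among the dividing cells' called genes was that of Hist1h2ak, at 15.4, 22.7 and 7.21 CPM in NC and 153, 136 and 79.5 CPM in CO (9.51-fold, 5.36 to 18.6). In these cells Hist1h1e had levels of 364, 278 and 486 CPM in NC and 2084, 1613 and 1590 CPM in CO (4.39-fold), and Hist2h2ac of 67.9, 17.0 and 115 CPM and 375, 329 and 276 CPM (4.13-fold). All CO libraries were above all NC libraries for these 3 genes. The share of all genes for which this held in dividing neuroblasts is not given, so it only describes them.

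The summed replication-dependent level of dividing neuroblasts was 2373, 2004 and 2770 CPM in the NC libraries and 7661, 8041 and 6600 CPM in the CO libraries. The S phase genes of the same cells summed to 4396 CPM in NC and 4257 CPM in CO, and their G2 and mitosis genes to 6560 and 7544 CPM. The libraries of the groups overlapped for both lists. Marker genes of the class differed between dividing and other cells in both groups. Olig2, a factor of oligodendrocyte precursors, was at 83.6 CPM in dividing NC and 14.2 CPM in dividing CO neuroblasts, so the dividing cells of this gate were not alike in all markers, and the part of this in the result was not tested.

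Relative to the other neuroblasts, dividing NC cells had 0.810 times the replication-dependent level (0.773 to 0.848) and dividing CO cells 2.10 times (2.06 to 2.14). The NC value turned on 1 gene. Hist3h2ba was at 2171 CPM in NC neuroblasts without Mki67 or Top2a and at 831 CPM in those with them, so it held more counts than the other replication-dependent genes together in the former. Without it the ratios were 1.85 in NC (1.72 to 1.98) and 4.29 in CO (4.18 to 4.41). Its level over all neuroblasts, 1704 CPM in NC and 1905 CPM in CO, had overlapping libraries. Gene by gene, 5 of 10 replication-dependent genes were at least 2-fold higher in dividing than in other NC neuroblasts, against 13.2% of 6833 genes, and 10 of 12 in CO, against 9.41% of 7066 genes. Hist3h2ba was lower in the dividing cells of both groups and at least 2-fold lower in NC. In microglia the same comparison gave 3 of 10 in NC (4.06% of all genes) and 3 of 14 in CO (2.06%), and the summed ratios were 1.14 and 1.27. Hist3h2ba was at least 2-fold lower in dividing NC microglia, at 7.84 CPM against 39.4 CPM in the others.

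**Figure D3:**
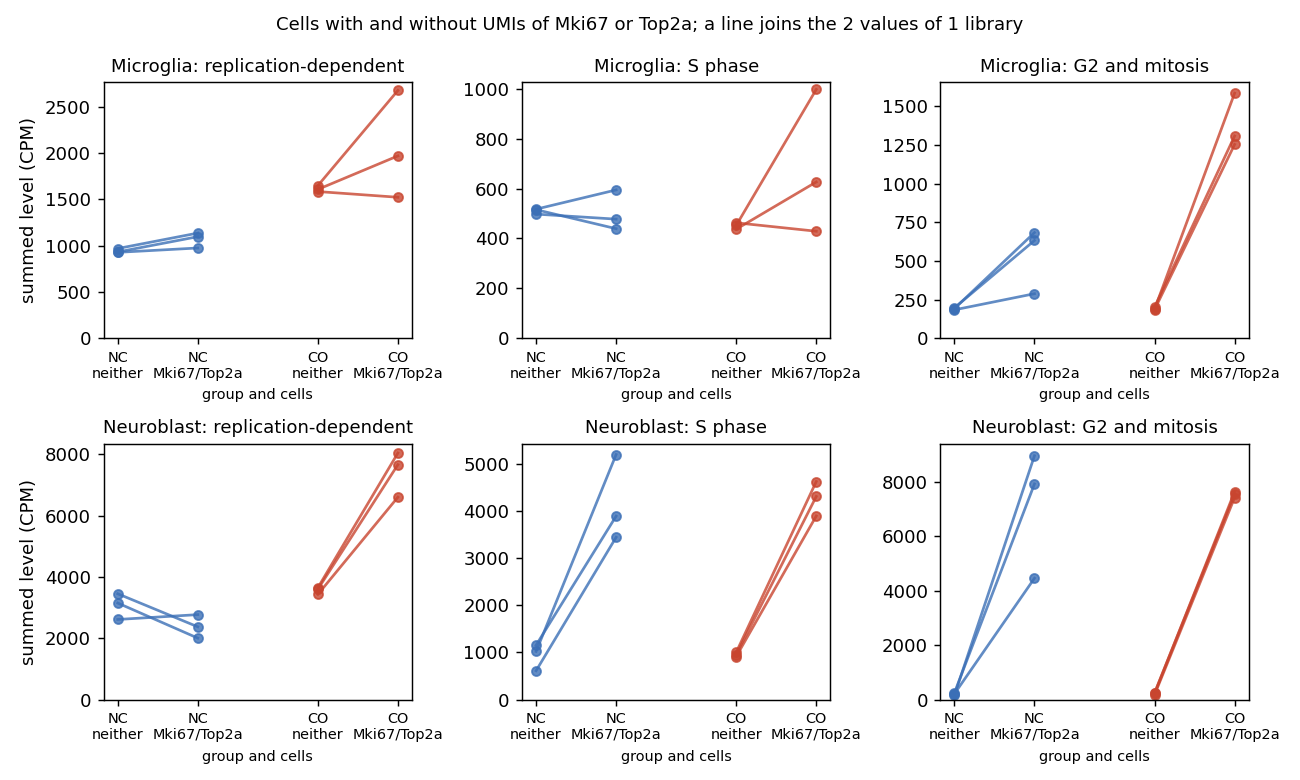
Summed level in CPM of the replication-dependent genes, the S phase list and the G2 and mitosis list, in cells with a UMI of Mki67 or Top2a and in cells with neither, for microglia (top) and neuroblasts (bottom). Each line joins both values of 1 library, and in dividing neuroblasts the replication-dependent sums were 2004 to 2770 CPM in NC and 6600 to 8041 CPM in CO while the other lists overlapped.

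The linker genes Hist1h1e and Hist1h1c and the H2A gene Hist2h2ac, all called in microglia above, were followed over all classes. Hist1h1e and Hist1h1c were higher in CO in each of the 10 classes, by 1.25-fold to 5.63-fold and 1.15-fold to 6.45-fold. Both upper values are those of astrocytes, where without dividing cells the ratios were 1.90 for Hist1h1e and 3.68 for Hist1h1c. In 9 and 8 of the classes every CO library was above every NC library, which in microglia held for 28.9% of all genes. No such share is given for the other classes. Hist2h2ac was higher in 8 of the 9 classes where it had 30 counts, by 1.74-fold or more, the exception being pericytes (0.934-fold). In astrocytes 4 of 6 replication-dependent genes were called (2.86% of all genes), in T or NK cells 5 of 9 (8.95%), in border macrophages 3 of 7 (5.2%), in pericytes 2 of 6 (5.81%), in ependymal cells 2 of 6 (4.73%) and in endothelial cells 1 of 5 (2.58%). None of 6 was called in oligodendrocytes (0.727%) or of 5 in choroid plexus (2.48%). These counts and shares by class take rises in CO only and leave out falls. H2afx was the replacement gene called in T or NK cells (3.06-fold), with 16.0, 87.7 and 42.6 CPM in NC and 11.3, 230 and 257 CPM in CO, so its libraries overlapped.

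Astrocytes and T or NK cells had few dividing cells. The 18 CO astrocytes with Mki67 or Top2a held 1075 of the class's 1826 replication-dependent UMIs, and without dividing cells the astrocyte ratio was 1.46 in place of 2.96. Those 18 cells held 0.225% of all UMIs of kept CO cells and the whole class 2.60%. In T or NK cells 9 CO cells held 897 of 1425 UMIs, and the ratio without dividing cells was 1.29 in place of 2.08. Those 9 cells held 0.0995% of all UMIs of kept CO cells and the whole class 0.640%. Of the 5 genes called in T or NK cells, Hist1h1e was at 2.02-fold and Hist2h2ac at 1.36-fold without dividing cells, and Hist1h2ah, Hist1h1d and Hist1h1b no longer passed the minimum. Hist3h2ba was then at 0.477-fold. Over all kept cells, those with Mki67 or Top2a held 6.90% of replication-dependent UMIs in NC and 18.3% in CO. Of all UMIs they held 5.57% in NC and 7.24% in CO. The endothelial call was Hist1h1c, at 62.9, 65.5 and 64.7 CPM in NC and 130, 133 and 126 CPM in CO (2.02-fold). Pericyte Hist3h2ba was at 124, 3.23 and 178 CPM in NC and 11.7, 26.6 and 11.0 CPM in CO, so its libraries overlapped. In pericytes without dividing cells it passed the level minimum at 0.154-fold (0.0850 to 0.261). The counts of called genes above leave out this fall. Without Hist3h2ba the pericyte sum had a ratio of 1.46 in place of 1.06, with no overlap.

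The class with the highest level differed between members. Of 28 replication-dependent genes with at least 30 UMIs, 10 were highest in neuroblasts in NC and 8 in microglia, and in CO 16 and 5. Every library of that class was above every library of the next highest class for 6 and 5 of these genes in NC and for 6 and 4 in CO. Of 11 replacement genes 8 were highest in neuroblasts in both groups. The share of all genes highest in these classes was not counted, so these counts only describe the members. In neuroblasts, in NC and CO, H2afv was at 1727 and 1492 CPM and H2afz at 29.7 and 19.8 CPM, with every CO library below every NC library for both. The share of all genes with such a fall is not given. H3f3b was highest in border macrophages, and H2afj in oligodendrocytes (121 and 169 CPM). In oligodendrocytes Hist3h2ba held 296 of the 568 CPM of replication-dependent counts in NC and 343 of 683 CPM in CO. H1foo, the linker histone gene known from oocytes, had 435 of its 497 UMIs in choroid plexus, at 20.6 CPM in NC and 18.4 CPM in CO.

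**Figure D4:**
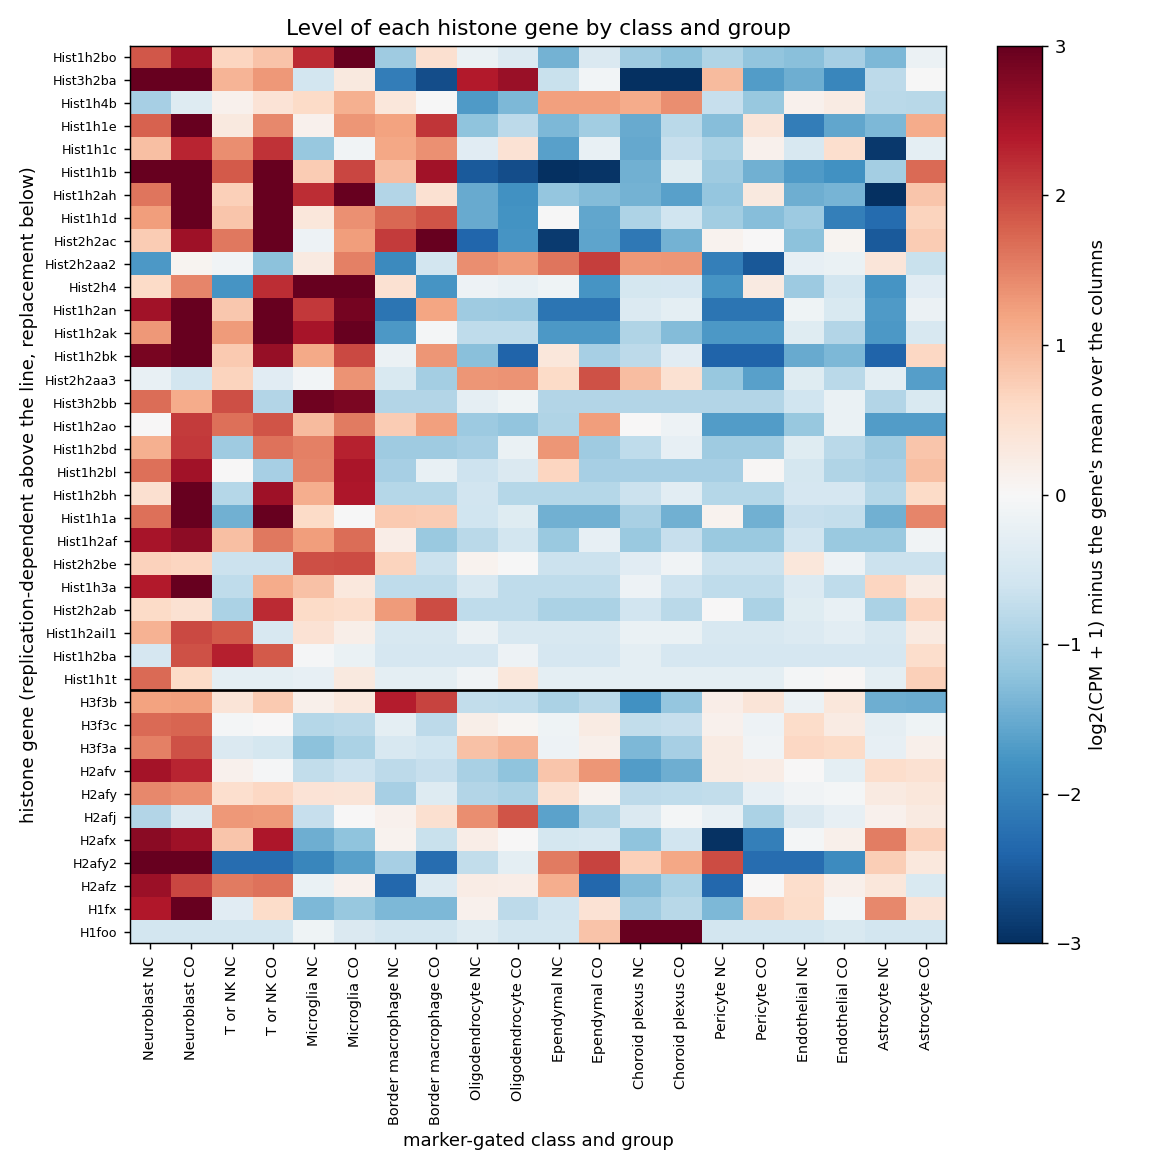
Level of each histone gene with at least 30 UMIs in the 10 classes and both groups, as log2(CPM + 1) minus the gene's mean over the columns, with a pseudocount of 1. Replication-dependent genes are above the line and replacement genes below, each ordered by UMIs, and red marks columns above the gene's mean, such as choroid plexus for H1foo and neuroblasts for H2afv. Colours end at 3 and -3.

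With the 6 libraries taken as replicates, which the check of the libraries does not support, edgeR's quasi-likelihood test with Benjamini-Hochberg adjustment at 0.05 called 23 of 34 histone genes tested in microglia, all higher in CO, against 36.2% of all 11118 genes. Its p-values would measure only the spread between libraries.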

How the data were processed

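Gene by barcode matrices of UMI counts were deposited by the authors, 1 per library, and the submitters' processing notes name Cell Ranger and Rnor_6.0. A barcode was kept from 500 UMIs and 200 genes upward. Doublets were marked per library with Scrublet in scanpy 1.11.5, and where it marked under 0.5% (CO 01 and CO 03) the top 6% of scores were removed. A cell took the class with most detected markers, at least 3 and at least 2 more than the next. The limit of 25 cells per library for a class was chosen after seeing the data.

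Counts were summed per class and group and scaled with TMM factors. Exact binomial 95% intervals cover counting error only. A member was called at 30 counts over both groups, a mean log2 CPM of 4 and a 2-fold difference. The counts of called members by class take rises in CO only, unless a fall is stated. Sums that compare dividing with other cells are CPM of total counts. Named genes were the called members, otherwise the 4 highest and 4 lowest ratios, the 6 members of each kind with most UMIs, H2afx and H2afz, and the 3 highest and 3 lowest ratios of each other list. A gene that this rule names on the S phase list is not reported here. The members and lists were chosen with earlier results of these data known.

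Microglia counts were simulated with counting error alone, the error that the interval assumes, so they do not test spread between libraries. In these counts, the interval covered the ratio used to draw a gene in 95.4% of the 11853 genes with no change. The coverage was 91.0% over 100 genes drawn with a 2-fold and 96.0% over 100 drawn with a 4-fold ratio. Alternatives used edgeR 4.0.16 and DESeq2 1.42.0 in R 4.3.3. On simulated microglia counts of 11197 genes, edgeR recovered 84% of the 100 drawn with a 2-fold and 100% of the 100 drawn with a 4-fold ratio, and 4.66% of its calls were false. Promoter sequences are RefSeq's for GRCr8, which is not the build of the counts.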

Additional observations from a re-analysis of the deposited data

Results flagged for a closer look

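Some members moved in opposite directions in different classes, with every CO library on one side of every NC library in each class named. The difference between classes was not tested, and no share of all genes is set beside these cases. H1fx was at 0.265-fold in oligodendrocytes and 0.530-fold in endothelial cells against 2.40-fold in neuroblasts. Outside neuroblasts its level was at most 5.91 CPM in NC and 3.15 CPM in CO, below the level minimum. H2afv was at 0.848-fold in oligodendrocytes, 0.805-fold in endothelial cells and 0.864-fold in neuroblasts, against 1.08-fold to 1.40-fold in microglia and ependymal cells. H2afx was at 0.570-fold in border macrophages against 1.17-fold to 1.57-fold in endothelial cells and choroid plexus. H2afy was at 0.780-fold in ependymal cells against 1.05-fold to 1.52-fold in 4 classes. H3f3b was at 0.803-fold in border macrophages against 1.13-fold to 1.57-fold in 4 classes. H3f3c was at 0.926-fold in oligodendrocytes, 0.810-fold in endothelial cells, 0.818-fold in pericytes and 0.709-fold in border macrophages, against 1.31-fold in ependymal cells.

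Among replication-dependent genes, Hist1h1a was at 0.557-fold in microglia against 1.40-fold to 4.37-fold in oligodendrocytes and neuroblasts. Hist1h1d was at 0.448-fold and Hist1h2ak at 0.505-fold in endothelial cells, against 2.09-fold to 3.46-fold and 2.23-fold to 6.21-fold in microglia and neuroblasts. Hist1h2ail1 and Hist1h3a were at 0.648-fold and 0.521-fold in microglia, against 2.42-fold and 1.67-fold in neuroblasts. Some of these levels were below the level minimum. Hist1h1d was at 3.24 CPM in CO endothelial cells, and Hist1h2ail1 at 1.88 and 4.56 CPM in NC and CO neuroblasts. Hist1h2bk had no UMI in CO oligodendrocytes, and with a floor of 3 counts over the group its ratio was at most 0.169, against 1.85-fold to 2.85-fold in microglia and neuroblasts. Hist3h2ba was at 0.695-fold in endothelial cells against 1.16-fold to 1.81-fold in 4 classes.

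Barcodes under the minimum of 500 UMIs entered no comparison. In them the replication-dependent genes summed to 707 CPM in NC and 861 CPM in CO.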

How the results depend on the processing

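Of 427 values under alternative settings, 294 stayed within the spread between libraries, 1.5 times a count or, without Hist3h2ba, the interval for counting error. Of the others, 128 were marked as moved and 5 as reversed. More ratios than those 5 crossed 1, as the values named here and for pericytes above show. In microglia the replication-dependent ratio was 1.73 with total counts and 1.77 to 1.83 leaving out each library. The replacement ratio was 1.07 with total counts, 1.11 thinned, 1.13 without dividing cells and 1.11 to 1.13 leaving out each library. The replacement ratio fell below 1 in neuroblasts without dividing cells (0.980) or without NC 03 (0.992), and in astrocytes without NC 03 (0.961) or CO 03 (0.998). Leaving out each library, the highest were 1.046 and 1.13. Over all alternatives the replacement ratio also lay on both sides of 1 in pericytes (0.967 to 1.107) and oligodendrocytes (0.942 to 1.005). The 7 called microglia members became 3 at a mean log2 CPM of 5 and 14 with no filter on level.

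Dividing over other cells, the ratio in NC microglia was 1.34 with at least 2 UMIs of Mki67 or Top2a and 1.04 thinned, and in CO microglia 1.51 and 1.21, and 1.09 to 1.43 leaving out each library. In NC neuroblasts it was 0.679 to 0.885 leaving out each library and 1.85 without Hist3h2ba, a setting chosen after seeing the data. In CO neuroblasts it was 2.16 with at least 2 UMIs, 2.02 thinned, 2.04 to 2.17 leaving out each library and 4.29 without Hist3h2ba. The cause of these shifts was not tested. With libraries as replicates, edgeR called 23 members with and without the replicate block, 24 with no filter, and 22 to 24 leaving out each library. Without CO 03 the 24 were 22 higher and 2 lower, and 21 were among the 23. DESeq2 called 22. Same-numbered libraries had correlations of 0.021, 0.027 and 0.067, so the numbers were not taken to pair them.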
